A study of Drosophila melanogaster with 8 samples.

Results

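The genes described here encode enzymes of glycolysis in Drosophila melanogaster. Of 10 listed genes (Hex-A, Pgi, Pfk, Tpi, Gapdh1, Gapdh2, Pgk, Eno, PyK and Ldh), 7 had a probe set that the platform annotation named for that gene alone, out of 12071 genes named in that way in the series. Members were found by gene symbol, from a list drawn up with earlier results of these data known. Gapdh2, PyK and Ldh are not analysed here. Tpi was read on the newer of the 2 array types only, since the older probe set for it carries a second gene symbol as well.

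The RNA came from S2 cells, a line derived from Drosophila embryos with haemocyte-like features, and was hybridised to 8 Affymetrix arrays, 4 of an older and 4 of a newer type. The older type held 2 arrays labelled EtOH plus CHX and 2 labelled DEX plus CHX, and the newer type held 2 labelled V plus CHX and 2 labelled DEX plus CHX. EtOH is ethanol, DEX is dexamethasone, an agonist of the glucocorticoid receptor, and CHX is cycloheximide, an inhibitor of translation. The labels do not explain V, which was used as the control of its own array type. All 8 labels, those of the controls included, name CLKGR and CHX. The label of 1 EtOH array adds that the cells were stably transfected with CLKGR. CLKGR is known as a fusion of the transcription factor CLOCK (CLK) to a glucocorticoid receptor, through which dexamethasone can switch CLK on. With translation blocked, transcripts that respond are usually taken to be near to the factor, which is the question the layout addresses. Doses, times, and whether replicates were separate cultures are not given in the labels, so a p-value here measures the spread between arrays, which may be technical.

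Glycolysis turns glucose into pyruvate in the cytosol and yields ATP and NADH. Hexokinase traps glucose in the cell as glucose 6-phosphate, phosphofructokinase commits the sugar to the pathway, and the later enzymes split it and harvest energy from the pieces. In Drosophila, Hex-A is the hexokinase used most widely across tissues, and CLK with its partner CYC binds E-box motifs to drive the transcription of clock genes.

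Among the 7 glycolysis genes, Hex-A stood far from the others, and its difference between DEX and control had opposite signs on the 2 array types. Opposite signs were the rule among strongly shifted genes. Of the 6755 genes read on both types, 24 had effects of at least 1 in size on both with opposite signs, and 1 with the same sign. The Hex-A level on the older type was 1.39 ± 0.18 (SE) higher in DEX than in EtOH on the log2 scale. For the newer type the value was -1.26 ± 0.24 (SE) in the arrays labelled DEX relative to V. Those effects differed between the array types by -2.66 ± 0.30 (SE), with an adjusted p of 0.0150 from limma, while neither effect passed the threshold of 0.05 within its own array type. For the 5 other genes read on both types, the difference between the effects lay near 0 and did not pass the test. All values are the log2 of the deposited intensity. Between 67 and 142 probe sets per array exceeded 65535, the highest value a scanner of this kind records, and the base with which the authors left the log scale is not given. If it was base e, each log2 difference shrinks by a factor of 0.693, with its unadjusted p unchanged for the same probe sets. Hex-A would then stand at 0.97 and -0.88, under the cut of 1 on both types, so the count of 24 would not hold.

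The labels of the newer type need a caution before the results. On the older type vri, Pdp1 and cwo, direct targets of CLK, rose with DEX by 4.04, 2.34 and 2.91 on the log2 scale (limma, adjusted p 0.0056, 0.0104 and 0.0297). A fainter older probe set of tim rose by 1.96 (adjusted p 0.0063), while its brightest one, at 2.62, did not pass (0.143). The list holds tim and per as well. By its brightest probe sets tim did not pass between types (-5.15, adjusted p 0.277). Its brightest newer set stood at -2.53 ± 1.01 (SE) in the arrays labelled DEX, with V replicates at 5.01 and 7.58. A second newer set of tim was at 6.33 and 6.17 in V and at 3.72 in both arrays labelled DEX. Its difference of -2.54 ± 0.08 (SE) did not pass either (limma, adjusted p 0.318). per stood at -0.01 in the newer arrays labelled DEX and was under the minimum on the older type. In the newer data vri, Pdp1 and cwo stood at -2.07, -2.14 and -2.90 in the arrays labelled DEX, relative to V, none past the threshold. The difference between types passed the test for vri (-6.11, adjusted p 5.3e-04), Pdp1 (-4.48, adjusted p 0.00115) and cwo (-5.81, adjusted p 0.0221). The direction on the newer type thus ran against that of the older type for 3 of the 5 listed targets by the test, and values there are given for "the arrays labelled DEX". Each of the 3 older calls was lost when either EtOH array was left out, with adjusted p up to 0.400, and the call of cwo between types was lost without EtOH 1 (0.308), EtOH 2 (0.177), older DEX 1 (0.0715), older DEX 2 (0.121) or newer DEX 2 (0.0637).

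All 9 haemocyte markers read on the older type and all 10 on the newer one were above the minimum of 4, and none passed a test. That minimum alone does not separate cell types. On newer arrays 4 of 4 neuron, 3 of 3 fat body and 3 of 4 muscle markers exceeded it too. On older arrays NimC1 at 4.52 and crq at 4.71 lay below the neuron genes elav (5.80) and nSyb (5.05) and the fat body gene Fbp1 (4.88). The other haemocyte markers there were at 8.70 or higher. The summed intensity of the haemocyte markers on older arrays was 42064 to 42571 in EtOH and 34191 to 45978 in DEX. On the newer type it was 109266 to 126820 in V and 124052 to 132913 in the arrays labelled DEX. Markers of muscle, neuron and fat body did not exceed a mean of 5.80 for any gene. None of these was called. The summed neuron markers were at 106.03 to 141.8 in V and 100.6 to 101.95 in the newer arrays labelled DEX. Among them elav was at 6.44 in V 1 and 5.51 in V 2, and at 5.50 and 5.49 in the arrays labelled DEX. The part of these values in the results was not tested. The log2 gap between the 3′ and 5′ control probe sets of GAPDH, a measure of RNA ends, ran from 4.64 to 5.55 among older arrays and from 4.24 to 4.61 among newer ones, with overlapping groups in both. The groups overlapped for actin too, and for eIF-4a on older arrays, while newer eIF-4a was at 3.31 and 3.32 in V and lower, at 3.26 and 3.24, in the arrays labelled DEX. EtOH 2 had the widest gap of the older arrays for all 3 transcripts, at 5.55, 3.44 and 3.01, and the part of RNA ends in the results was not tested. In a culture, fewer cells with a transcript and less of it per cell cannot be told apart.

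Hex-A phosphorylates glucose at the entry of the pathway. Its older log2 values were 7.82 and 8.001 in the EtOH arrays and 9.37 and 9.24 in the DEX arrays. Both DEX arrays lay above both EtOH arrays, by a gap of 1.24 between the nearest pair, whereas replicates differed by at most 0.18. On the deposited scale these were intensities of 226 and 256.2 against 662.9 and 603.4, a 2.63-fold difference of the log means, or 1.95-fold if the log base was e. The 95% confidence interval of the log2 difference was 0.95 to 1.84, and the adjusted p from limma was 0.0772, so Hex-A was not among the 0.263% of probe sets called on this type. By absolute difference it ranked 36 among 10250 probe sets tested.

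The newer Hex-A probe set reads several transcripts of the gene. Its values were 12.41 and 12.997 in the V arrays and 11.47 and 11.41 in the arrays labelled DEX. Both arrays labelled DEX lay below both V arrays by at least 0.94, and the V replicates were 0.58 apart, a wider gap than in 87.1% of probe sets. The interval of the difference was -2.01 to -0.51, with an adjusted p of 0.865 from limma. No probe set of the 12436 tested was called on the newer type (0%), although 439 (3.53%) had an unadjusted p under 0.05, among them Hex-A at 0.0119. With the spread estimated from all 8 arrays, 12 genes (0.178%) were called on the newer type and Hex-A had an adjusted p of 0.136.

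The difference of the DEX effects, newer minus older, was tested directly in 6755 genes read on both types, of which 27 were called (0.4%). Hex-A was the only one of the 6 testable glycolysis genes among them, in the direction that held 0.355% of genes. Its difference of -2.66 had a 95% interval of -3.36 to -1.96 and ranked 25 by size, with an adjusted p of 0.0150 from limma. All of this rests on the labelled direction of the newer arrays. With the sign of the newer effect turned, the difference of Hex-A was -0.13 ± 0.30 (SE), with an interval of -0.83 to 0.57, an adjusted p of 0.953 and rank 4273, and 0 genes were called (376 at an unadjusted p under 0.05). The call did not survive every array: adjusted p was 0.179 without EtOH 1, 0.134 without EtOH 2, 0.0841 without older DEX 1, 0.0750 without older DEX 2 and 0.0672 without newer DEX 2. It held without V 1 (0.00632), V 2 (0.0225) or newer DEX 1 (0.0446), and the value itself ranged from -2.95 to -2.37 over these omissions.

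**Figure D1:**
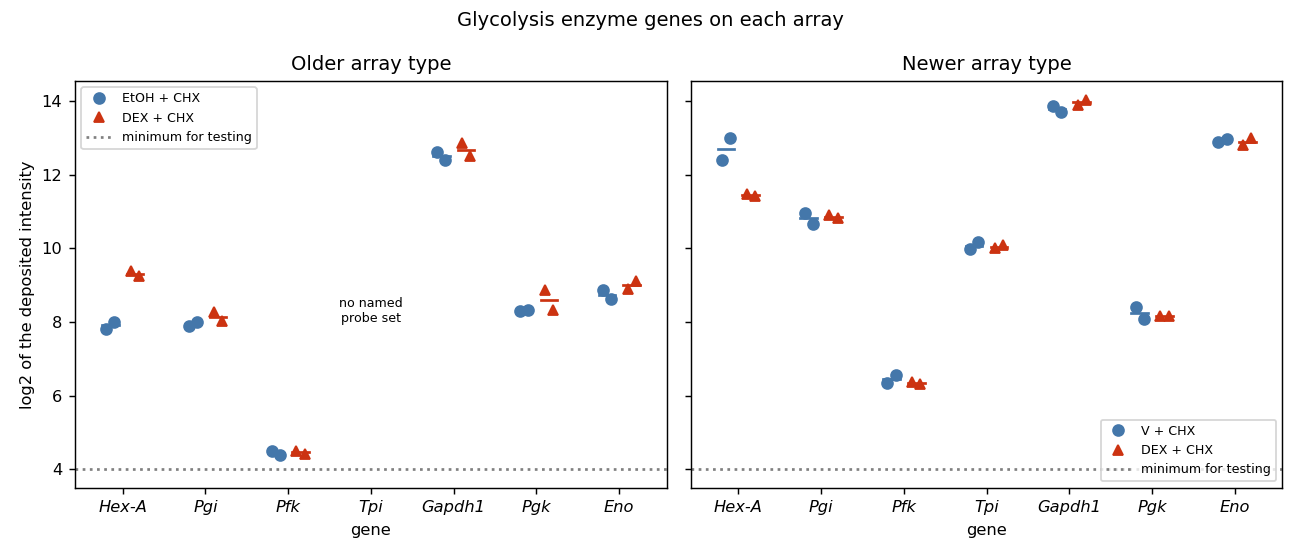
Log2 of the deposited intensity of each glycolysis gene on every array, for the older type (left) and the newer type (right). Circles are control arrays (EtOH or V), triangles are arrays labelled DEX, short bars are means of 2 arrays, and the dotted line is the minimum of 4. The Hex-A triangles lie above the circles on the older type and below them on the newer type.

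Pgi converts glucose 6-phosphate to fructose 6-phosphate, the next step after hexokinase. Its older values were 7.89 and 7.990 in EtOH and 8.26 and 8.03 in DEX. The DEX arrays were both higher, but only by a gap of 0.04, and the difference of 0.20 had an interval of -0.23 to 0.64. Its newer values were 10.97 and 10.67 in V and 10.89 and 10.81 in the arrays labelled DEX. Those lay within the V range, with a difference of 0.03 ± 0.15 (SE), and the probe set may also read another gene.

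Pfk, the committing step, was faint on the older type, at 4.49 and 4.396 in EtOH and 4.51 and 4.41 in DEX. The groups overlapped close to the minimum of 4, and the interval of -0.17 to 0.20 for the difference of 0.02 was measured at that low intensity. The newer arrays had Pfk at 6.35 and 6.56 in V and at 6.36 and 6.32 in the arrays labelled DEX. The groups overlapped there too, with a difference of -0.11 ± 0.12 (SE).

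Tpi interconverts the triose phosphates made when the sugar is split. It was at 9.97 and 10.18 in V and at 9.998 and 10.09 in the arrays labelled DEX, all of the newer type. The groups overlapped, and the difference of -0.03 had an interval of -0.41 to 0.36. This probe set, the only reading of Tpi here, may also read another gene. The older probe set with a second gene symbol is left unnamed.

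Gapdh1 oxidises glyceraldehyde 3-phosphate and makes NADH. Its older values were 12.60 and 12.39 in EtOH and 12.86 and 12.51 in DEX, so the groups overlapped around a difference of 0.19 ± 0.20 (SE). The newer values were 13.88 and 13.69 in V and 13.90 and 14.04 in the arrays labelled DEX. These were just above V, by a gap of 0.03, with a difference of 0.19 ± 0.11 (SE) and an interval of -0.16 to 0.54. Gapdh1 was thus the gene whose effects were closest on both types, with a difference between them of 0.00096 and an interval of -0.55 to 0.55. The Affymetrix control probe sets for GAPDH gave differences of -0.22 to 0.15 in 3 sets on the older type, all with overlapping groups, and of -0.15 to 0.20 in 7 sets on the newer type, 6 with overlapping groups.

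Pgk makes the first ATP of the pathway. Older Pgk values were 8.31 and 8.32 in EtOH and 8.87 and 8.33 in DEX. The difference of 0.29 rested on DEX 1, since DEX 2 was only 0.01 above the higher EtOH array, and the DEX replicates were 0.54 apart, a wider gap than in 91.5% of probe sets. Newer Pgk values were 8.41 and 8.07 in V and 8.18 and 8.15 in the arrays labelled DEX. The latter fell between the V arrays, at a difference of -0.08 ± 0.17 (SE).

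Eno makes phosphoenolpyruvate, the substrate of pyruvate kinase. Its older values were 8.87 and 8.62 in EtOH and 8.91 and 9.10 in DEX. Both DEX arrays were higher by a gap of 0.04, and the difference of 0.26 had an interval of -0.21 to 0.74. The newer values of Eno were 12.89 and 12.97 in V and 12.81 and 12.98 in the arrays labelled DEX, which overlapped around a difference of -0.03 ± 0.10 (SE). Its newer probe set may also read another gene.

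On the older type all 6 genes had a positive difference, against 41.1% of all probe sets, and the median was 0.23 against -0.01. The groups did not overlap, with DEX higher, in 4 of 6 (Hex-A, Pgi, Pgk and Eno), a pattern that held in 13% of all probe sets, and in 0 of 6 with DEX lower, against 13.6%. Apart from Hex-A, the gaps were 0.01 to 0.04 and no adjusted p was below 0.9998 in limma. DEX 1 was the highest of the 4 older arrays in 5 of 6 genes, whereas it was the highest in 19.9% of all probe sets. Over all probe sets EtOH 2 was the highest array in 51.5% and EtOH 1 the lowest in 44.7%, so the controls also stand apart from each other in the background shares. The part of these arrays in the small differences was not tested.

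On the newer type 2 of 7 genes had a positive difference, against 47.6% of probe sets, and the median was -0.03 against 0.00. With the sign turned, 5 of 7 were positive, against 52.4%. The groups did not overlap in Hex-A, lower in the arrays labelled DEX as in 23.9% of probe sets, nor in Gapdh1, higher as in 13%, and turning the sign swaps these directions and shares. The other 6 genes ranged from -0.11 to 0.19, with adjusted p of at least 0.865.

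**Figure D2:**
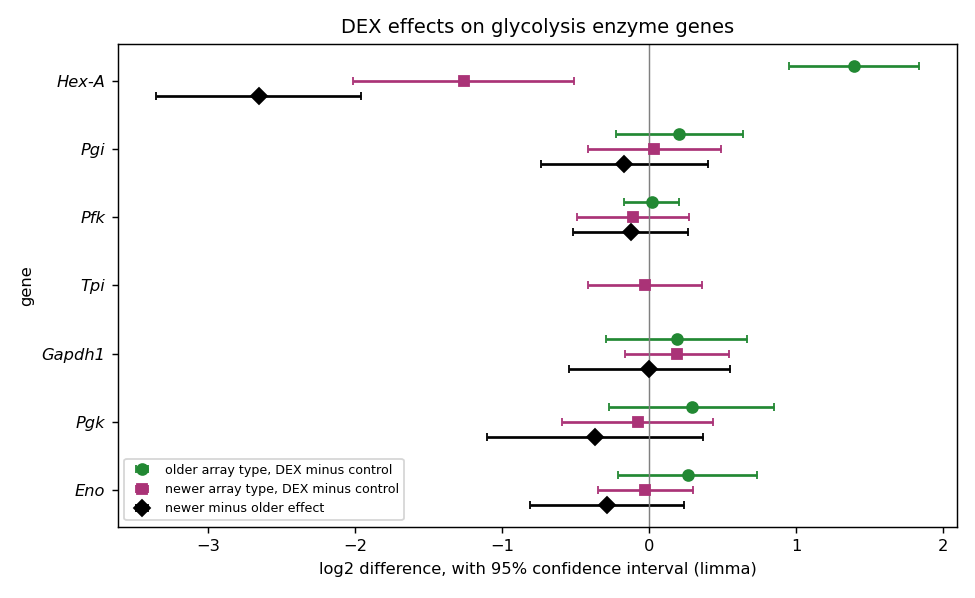
Log2 differences between arrays labelled DEX and control for each glycolysis gene, with 95% confidence intervals from limma, on the older type (circles), the newer type (squares), and the newer minus the older effect (diamonds). Only the Hex-A intervals lie clear of 0, on opposite sides for the 2 types, and every other gene's interval includes 0.

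Of the 6 genes, 5 had a negative difference between the effects, against 47.7% of all genes. Apart from Hex-A, the values were 0.00096 for Gapdh1, -0.13 for Pfk, -0.17 for Pgi, -0.29 for Eno and -0.37 for Pgk. All their intervals included 0, the widest being -1.10 to 0.37 for Pgk and the narrowest -0.52 to 0.26 for Pfk, and their adjusted p lay between 0.968 and 0.9997. An effect of the size of the Hex-A difference therefore lay outside each of these intervals. Differences inside a gene's interval could not be resolved with 2 arrays per group.

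**Figure D3:**
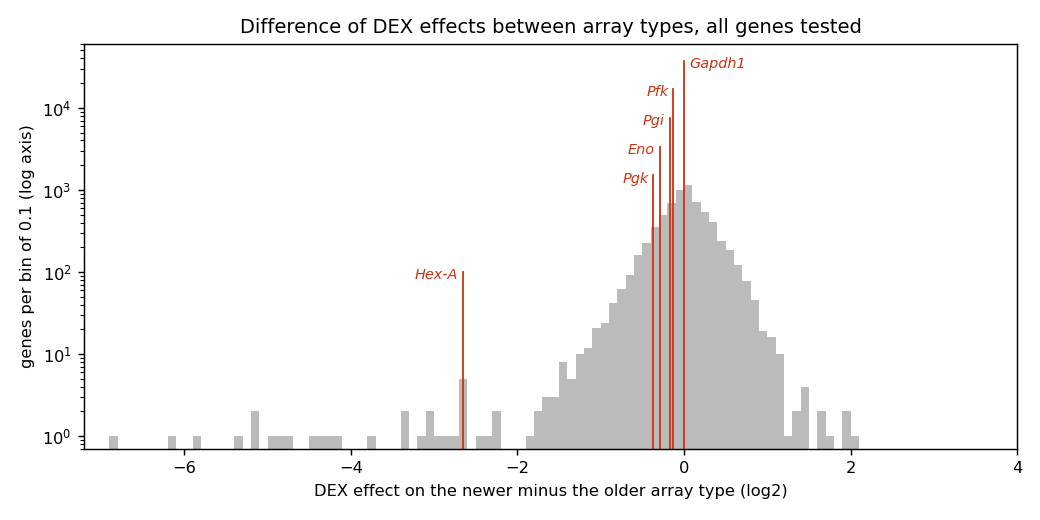
Number of genes (log axis, bins of 0.1) by the difference of DEX effects, newer minus older type, in log2 units, for 6755 genes. Red lines mark the 6 glycolysis genes: Hex-A at -2.66 stands in the left tail, and the other 5 lie between -0.37 and 0.00.

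The middle 90% of all genes lay between -0.58 and 0.58 in this difference, so the 5 other enzymes fell inside the bulk and Hex-A outside it. With the newer sign turned the middle 90% lay between -0.67 and 0.50, and Hex-A at -0.13 fell inside it, as did the 5 others, at -0.38 to 0.095.

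Enzymes around these genes were taken from lists of the rest of glycolysis with paralogues, of gluconeogenesis and pyruvate use, of glycogen, trehalose and sugar uptake, of the pentose phosphate branch and of regulators of glycolytic genes. In the rest of glycolysis, none of 10 genes tested on the older type, of 7 on the newer type or of 7 between types was called. The medians of these 3 comparisons were -0.02, -0.09 and 0.00, against -0.01, 0.00 and 0.01 over everything tested. The other hexokinase genes were low: Hex-C and Hex-t2 averaged 4.05 and 4.17 on older arrays, and on newer arrays Hex-C at 3.89, Hex-t1 at 3.75 and Hex-t2 at 3.78 were under the minimum. The genes nearest to a call between types were Ald1, aldolase, at -0.24, CG9961 at -0.18 and CG2964 at -0.13, none past the threshold. A second newer probe set of Ald1 gave -0.64 for the arrays labelled DEX relative to V, where the brighter one gave -0.08, and neither passed.

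In gluconeogenesis and pyruvate use, no call was made among 9 genes on older arrays, 11 on newer arrays and 9 between types. Men, the malic enzyme that makes NADPH, came nearest, with a difference between types of 0.69 ± 0.27 (SE) and an adjusted p of 0.881 from limma. Gpdh1, which passes electrons from glycolysis to glycerol 3-phosphate, stood at -0.53, and CG7430 stood at 0.26.

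In the list of glycogen, trehalose and sugar uptake 1 gene was called. Over everything tested, 0.263% of probe sets were called on the older type and 0.4% of genes between types. The list was chosen with earlier results of these data known. Tret1-1, a trehalose transporter, was at 5.33 and 5.41 in EtOH and at 7.82 and 7.76 in DEX on the older type. It rose by 2.42 ± 0.14 (SE) with an adjusted p of 0.0045 from limma, the only call among the 8 genes of its list tested on older arrays. On newer arrays it was at 9.63 and 9.96 in V and at 7.28 and 7.48 in the arrays labelled DEX, a difference of -2.42 ± 0.18 (SE) with an adjusted p of 0.849. The groups did not overlap on either type, and the difference between types was -4.84 ± 0.25 (SE) with an adjusted p of 5.3e-04. The call between types held without each array in turn (highest adjusted p 0.0217), but that on the older type was lost without EtOH 1 (0.234) or EtOH 2 (0.139). Its close relative Tret1-2 stood at 0.0030 with DEX against EtOH and at -0.93 against V, and the test between types did not call it (-0.93, adjusted p 0.367), and sut1 at 0.68 did not pass either (0.666).

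In the pentose phosphate list, chosen in the same way, 1 of 5 genes was called: Prps, which makes the ribose pyrophosphate used for nucleotides. The shares over everything tested were 0.263% on the older type and 0.4% between types. Its values were 11.54 and 11.05 in EtOH against 13.58 and 13.35 in DEX on the older type, a rise of 2.16 ± 0.22 (SE) with an adjusted p of 0.0339. The newer values were 11.58 and 12.29 in V against 10.31 and 9.13 in the arrays labelled DEX, which gave -2.21 ± 0.55 (SE) with an adjusted p of 0.865. The difference between types was -4.38 ± 0.58 (SE) with an adjusted p of 0.0311, and this call was lost without EtOH 1 (0.274), EtOH 2 (0.322), older DEX 1 (0.183), older DEX 2 (0.147) or V 2 (0.0927). The older call was lost without EtOH 1 (0.242) or EtOH 2 (0.209). Taldo and CG8036 stood at 0.34 and -0.28 between types and did not pass.

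No regulator was called among 8 tested on older arrays, 10 on newer arrays and 8 between types. crp, Mondo, which forms the sugar-sensing Mondo-Mlx factor, and sima, the fly hypoxia-inducible factor, stood at 0.98, -0.47 and 0.35 between types. Leaving out 1 array in turn moved these over 0.58 to 1.37, -0.75 to -0.20 and 0.052 to 0.65. sug, a zinc finger factor of the sugar response that was picked out after its values were seen, was under the minimum on the older type. Its newer values were 5.91 and 7.11 in V and 4.89 and 4.64 in the arrays labelled DEX, a difference of -1.75 ± 0.49 (SE) with an adjusted p of 0.865.

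**Figure D4:**
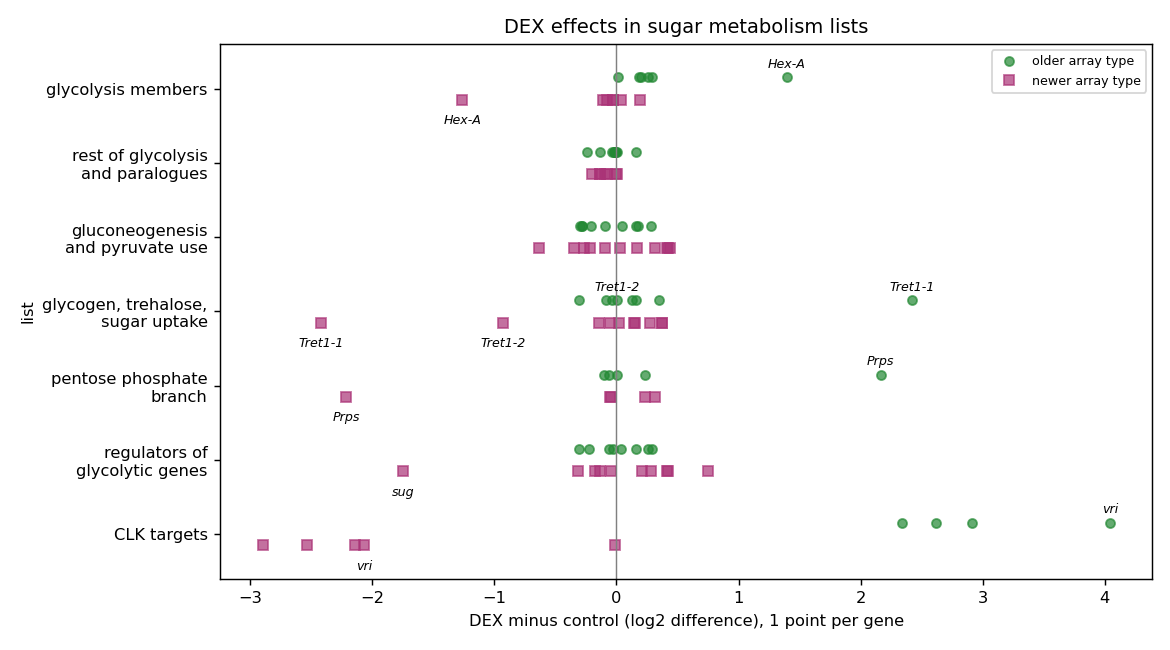
DEX minus control (log2 difference), 1 point per gene tested, for the glycolysis genes and 6 further lists, on the older type (circles) and the newer type (squares). Hex-A, Tret1-1, Prps and 3 called CLK targets lie to the right on the older type and to the left on the newer one, while most points of the sugar lists lie near 0.

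The 10 genes whose values ran most like those of Hex-A over the 8 arrays were found by the root mean square difference of log2 values, each centred on the mean of its array type. The values were not scaled, so the distance reads the size of a change as well as its direction. Tret1-1, with larger effects in the same directions (2.42 and -2.42), is not among the 10. CtsL1, a cathepsin, was nearest at 0.186, then Mob2 at 0.191, hry, a transcriptional repressor known as hairy, at 0.195, CG7530 at 0.220 and FASN1, a fatty acid synthase, at 0.228. They were followed by CG4766 at 0.283, E(spl)mbeta-HLH, a Notch target, at 0.283, CG42675 at 0.342, CG11050 at 0.349 and Rim2, a mitochondrial carrier, at 0.350. The median over all 6755 genes was 0.705, and the 5 other glycolysis genes stood at 0.623 to 0.705, about as far from Hex-A as a typical gene. For a gene that changes little this distance is set by the swing of Hex-A itself. It therefore shows only that these 5 genes did not follow Hex-A. Of the 10 genes, 7 passed the test between types (CtsL1, hry, CG7530, FASN1, CG4766, E(spl)mbeta-HLH and Rim2), but they were selected for a pattern that this test reads, so their calls add no support. CtsL1 and CG7530 stayed called without each array in turn. hry and E(spl)mbeta-HLH lost the call without EtOH 1 (0.0811 and 0.0786) or EtOH 2 (0.0838 and 0.0635). Rim2 lost it without EtOH 1 (0.203), EtOH 2 (0.177) or V 2 (0.0581). FASN1 lost it without each array other than EtOH 2, with adjusted p up to 0.173, and CG4766 lost it without each array other than EtOH 2 and V 1, up to 0.157.

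**Figure D5:**
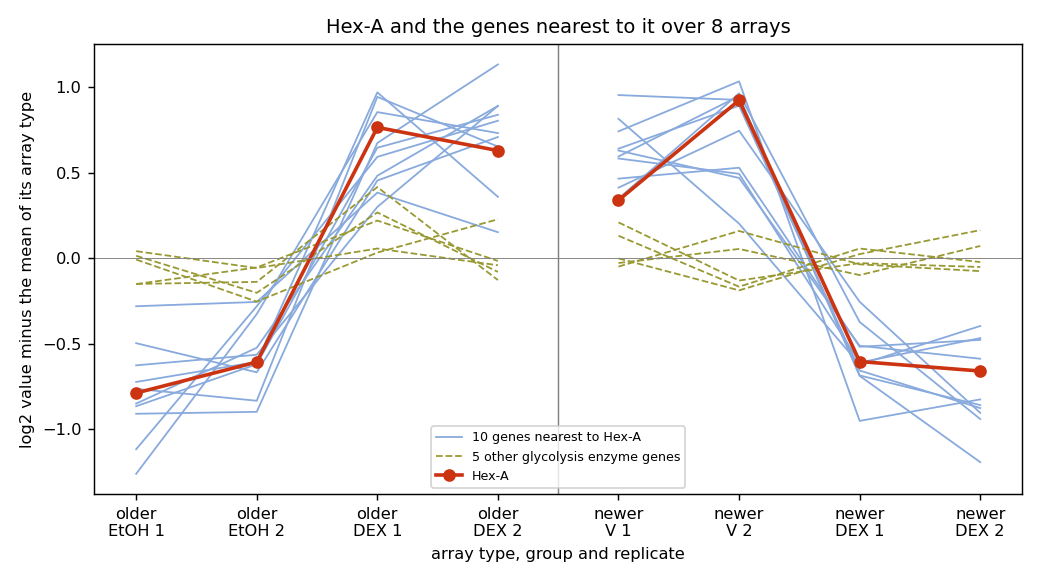
Log2 value minus the mean of its array type on each of the 8 arrays, for Hex-A (red, thick), the 10 genes nearest to it (blue) and 5 other glycolysis genes (dashed). Hex-A and its nearest genes lie above 0 in older DEX and V arrays and below 0 in EtOH arrays and newer arrays labelled DEX, while the other enzymes stay within 0.42 of 0.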

How the data were processed

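Total RNA from S2 cells was read on 8 arrays of 2 types. Per the submitters' processing notes the authors used GCRMA, version not given in the sources used here, and deposited 1 intensity per probe set and array, not on a log scale. Each array type was normalised alone, so no level was compared across types. The log2 of each deposited intensity was taken with no pseudocount, and control probe sets (44 older, 183 newer) were left out of tests. Probe sets with a mean of at least 4 were tested with limma 3.58.1 in R 4.3.3 (lmFit, eBayes with an intensity trend, two-sided, Benjamini-Hochberg over the whole table, threshold 0.05). The difference between types used 1 value per gene (its brightest probe set) and an interaction term over 8 arrays. An exact permutation test of 2 arrays against 2 cannot go below 0.333, so none was used. Precision is set by the small number of arrays. The main fits were first run on simulated data with independent noise between arrays. That check set a limit on the mean error of the effects, not on false calls, and did not cover the alternative fits.

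Probe sets with 1 symbol in the platform annotation were named (12444 older, 13647 newer); those with several (327 and 402) or none (1239 and 4903) were not. Symbols were updated through RefSeq where they matched (12394 and 13544). Every probe set of the listed genes with 1 symbol was named. From each other list the genes called in any fit were named, filled up to 3 by the smallest p between types. The genes and lists were chosen with earlier results of these data known. Probe sets ending in _s_at or _a_at can read several transcripts or genes. Motifs and sequences were not analysed here.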

Additional observations from a re-analysis of the deposited data

Results flagged for a closer look

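Among the genes named here, the DEX effect of 13 differed between the array types by the direct test. Over all 6755 genes tested it called 27 (0.4%), of which 24 were lower on the newer type. The newer minus the older effect is given here on the log2 scale. Among the glycolysis genes this was Hex-A, at -2.66. The lists added the CLK targets vri at -6.11, cwo at -5.81 and Pdp1 at -4.48, with Tret1-1 at -4.84 and Prps at -4.38. The genes nearest to Hex-A added CG4766 at -3.36, Rim2 at -3.07, FASN1 at -2.93, E(spl)mbeta-HLH at -2.88, hry at -2.71, CG7530 at -2.70 and CtsL1 at -2.48. The 7 genes of the last group were selected for a profile like that of Hex-A, which fixes their direction. Array type, the control (EtOH or V) and the labels change together between these comparisons and cannot be told apart.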

How the results depend on the processing

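Apart from turning the sign of the newer effect, the direction of Hex-A was kept in all 3 comparisons under every alternative that could read it. Its call was not. Between types the difference was -2.66 with the array number as a replicate block, where the adjusted p was 0.106, and the number of genes called went from 27 to 10. The block also ended the calls between types of cwo (0.224), Prps (0.281), CG4766 (0.140), FASN1 (0.0969), hry (0.0905) and Rim2 (0.0783), as adjusted p. Turning the sign of the newer effect, chosen after seeing the data, left 0 calls, 0 of them glycolysis genes. It gave -0.13 for Hex-A, with an interval of -0.83 to 0.57 that sets no direction, -0.38 for Gapdh1 and 0.095 for Pfk. Plain probe sets left 16 calls and 0 glycolysis genes called, since Hex-A has no plain set on the newer type. The block also left 0 glycolysis genes called. The numbers do not pair the arrays by any label, and the same-number deviations correlated at 0.264 among older and -0.023 among newer arrays. Leaving out 1 array gave 8 to 58 calls and 0 to 1 glycolysis gene called, Hex-A ranging from -2.95 to -2.37. On the older type 27 calls became 73 with no filter, 0 with median centring, 4 with repeated quantile normalisation, 12 with no intensity trend, 14 with the spread of 8 arrays and 0 to 455 without 1 array, while the block gave 34. Without either EtOH array 0 were called, and without DEX 1 or DEX 2 the counts were 263 and 455, with Hex-A then called, but there the lone DEX array is assumed to vary like the 2 EtOH arrays, which alone supply the spread. Hex-A on the older type was called with no filter (1.39, adjusted p 0.0252) and ranged from 1.30 to 1.48 without 1 array, where 0 to 1 glycolysis gene was called, and with no filter 1 was. On the newer type 0 calls became 12 with the spread of 8 arrays, and Hex-A ranged from -1.56 to -0.97 without 1 array, never called.

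The counts that follow are no measure of stability. They include the natural log, which keeps each sign and p by construction, and genes far from a call, which readily stay uncalled. Of 777 gene values under an alternative, 673 kept direction and call, 75 lost the call, 7 gained it and 22 changed sign. Of those 22, 0 passed the threshold before or after. Without 1 array in turn, the rest of these ran, between types, from -0.29 to 0.030 for CG2964, -0.38 to 0.011 for CG9961 and -0.17 to 0.17 for Gapdh1, which was -0.0029 with median centring. On the newer type they ran from -0.11 to 0.058 for Eno, -0.11 to 0.18 for Pgi (-0.014 with repeated quantiles), -0.25 to 0.090 for Pgk and -0.13 to 0.075 for Tpi. On the older type they ran from -0.033 to 0.065 for Pfk and -0.029 to 0.035 for Tret1-2 (-0.061 with repeated quantiles). The causes were not tested.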
